A study of Mus musculus with 6 samples.

Results

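The exocyst is a protein complex that holds secretory vesicles at the plasma membrane before they fuse, and it was examined here in mouse gastrocnemius muscle carrying a constitutively active aryl hydrocarbon receptor (AHR). The members were 10 genes matched by symbol among the 49315 genes of the count table: the subunit genes Exoc1 to Exoc8 with the Exoc6 paralog Exoc6b, and Exoc3l, a relative of Exoc3 that is not a subunit. The set was chosen from the difference of Exoc3 between the 2 groups compared here, because Exoc3 lies next to the AHR repressor gene Ahrr, and the other 9 genes were then listed by name. The values of Exoc3 between the groups are therefore a description. All 10 members passed the filter on low counts, as did 15847 genes in all.

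Male C57BL6J mice were injected in the gastrocnemius at 5 months of age with AAV9, an adeno-associated virus, and the muscle was taken 5 months later. One group received AAV9-HSA-GFP, which encodes a green fluorescent protein, and the other AAV9-HSA-CAAHR, which encodes mouse AHR without its ligand binding domain, so that it needs no ligand. The human skeletal actin promoter (HSA) of both viruses limits the transgene to muscle fibres, while the RNA came from whole muscle. Each group had 3 libraries, CAAHR replicates 31, 34 and 36 and GFP replicates 42, 43 and 46, with 43432994 to 58825752 counts per library, and every animal carried a virus.

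Vesicles that carry new membrane or receptors are caught by the exocyst at their target patch of plasma membrane. Small GTPases of the Ral, Rab and Arf families bind individual subunits and decide where and when the complex assembles, and SNARE proteins then fuse vesicle and plasma membrane. In muscle and fat the exocyst is known for the delivery of the glucose transporter GLUT4 to the surface after insulin. AHR, with its partner ARNT, binds DNA elements with the core GCGTG, and Ahrr is one of its best known target genes.

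The delivered gene was measured first. Ahr levels, as CPM (counts divided by library size in units of 1000000 counts, with library sizes adjusted by the TMM method so that most genes balance between libraries), were 9.97, 22.8 and 17.3 in CAAHR replicates 31, 34 and 36 and 2.47, 2.55 and 1.87 in GFP replicates 42, 43 and 46. The groups did not overlap, as the labels require, though counts do not separate delivered from endogenous Ahr. Skeletal fibre markers such as Acta1 and Ckm were abundant in every library, with a summed level of 150877 to 202582 CPM over 7 genes in CAAHR and 223950.2 to 230609.8 CPM in GFP muscles. Of these 7 markers 3 were called lower in CAAHR muscles by edgeR, where 4.57% of all tested genes were, and 4 were called by DESeq2, 4 by limma-voom and 5 by edgeR without CAAHR replicate 34. Of 5 genes listed as AHR targets (Ahrr, Cyp1a1, Cyp1b1, Nqo1 and Tiparp) 5 were called higher by edgeR, where 3.04% of all tested genes were. Their median log2 fold change was 6.36.

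Exoc3 encodes a core subunit of the exocyst. Its level was 98.7, 98.2 and 103 CPM in CAAHR replicates 31, 34 and 36 and 47.4, 44.9 and 43.6 CPM in GFP replicates 42, 43 and 46. Every CAAHR library was above every GFP library, and the libraries of a group lay close together, with an SD of log2 CPM of 0.04 in CAAHR and 0.06 in GFP muscles. The mean was 99.9 ± 2.46 CPM (SD, n = 3) against 45.3 ± 1.92 CPM, which is a 2.20-fold difference and a log2 fold change of 1.14 ± 0.09 (SE), with a 95% interval from 0.95 to 1.33. Of the 15847 genes tested, 265 (1.67%) had a higher log2 fold change than Exoc3. The level of Exoc3 was similar in the 3 CAAHR muscles even though Ahr was not: the highest CAAHR library was 1.05 times the lowest for Exoc3, 1.22 times for Ahrr and 2.29 times for Ahr.

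**Figure D1:**
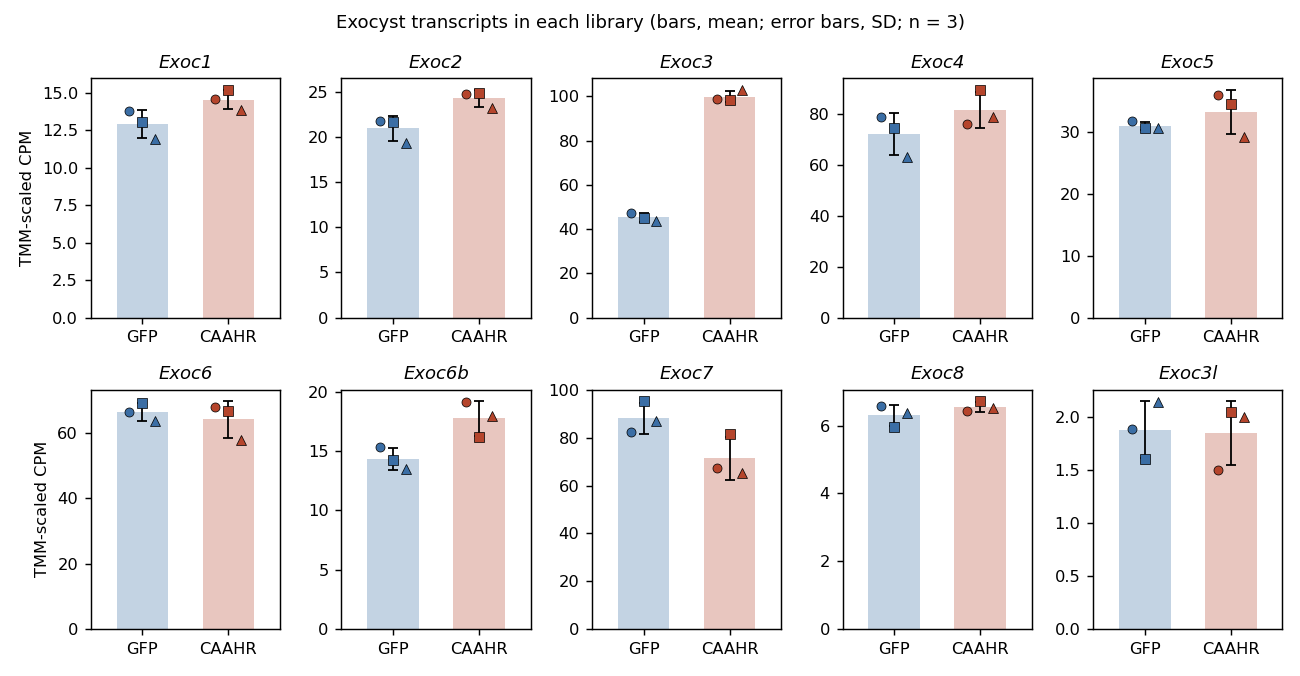
TMM-scaled CPM of each exocyst gene (vertical axes, linear, starting at 0) in AAV9-HSA-GFP and AAV9-HSA-CAAHR muscles; bars are means, error bars SD and points single libraries (circles GFP 42 and CAAHR 31, squares GFP 43 and CAAHR 34, triangles GFP 46 and CAAHR 36). Exoc3 lies at 98.2 to 103 CPM in CAAHR and 43.6 to 47.4 CPM in GFP muscles. The other genes differ by a smaller fold. Among them Exoc7 has a mean of 71.4 CPM in CAAHR and 88.2 CPM in GFP muscles, and Exoc6b one of 17.7 and 14.3 CPM.

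The comparison then asked whether the rest of the complex moved with Exoc3. Among the 10 members, 1 had an adjusted p under 0.05 by edgeR's quasi-likelihood test with Benjamini-Hochberg adjustment over all genes, and this was Exoc3, the gene that had led to the set, so nothing is read from that count. Over all tested genes 7.60% passed, of which 3.04% of the tested genes were higher and 4.57% lower. Of the other 9 members, 0 passed by edgeR, by DESeq2 or by limma-voom, with 3 at an unadjusted p under 0.05 by edgeR, where 23.9% of all genes had such a p. Their log2 fold changes ran from -0.31 to 0.31 with a median of 0.10, beside a median of 0.01 over all genes, and 6 were above 0 and 3 below. The 95% intervals of these 9 members reached at most 0.54 on the higher side and -0.56 on the lower side. None of them extended to 0.95, the lower limit of the interval for Exoc3. Exoc3 was chosen for its difference between these groups, so this comparison of intervals is a description.

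Summed over the 9 other members, transcript levels were 313, 337 and 295 CPM in CAAHR replicates 31, 34 and 36 and 319, 326 and 298 CPM in GFP replicates 42, 43 and 46. The sums overlapped, with means of 315 ± 21.1 and 314 ± 14.6 CPM (SD, n = 3). Opposite differences cancel in such a sum: 6 of the 9 members were above 0 and 3 below. The largest differences in mean CPM were -16.8 for Exoc7 and 9.33 for Exoc4, so equal sums do not show that each member was unchanged. Exoc3 alone made up 23.9%, 22.6% and 25.8% of all exocyst counts in CAAHR replicates 31, 34 and 36 and 12.9%, 12.1% and 12.8% in GFP replicates 42, 43 and 46. This share is a ratio within a library and does not change with the scaling between libraries. It was 24.1% ± 1.61 in CAAHR and 12.6% ± 0.436 in GFP muscles (SD, n = 3). There were 1.30, 1.10 and 1.30 Exoc3 counts per Exoc4 count in the CAAHR libraries and 0.603, 0.605 and 0.692 in the GFP libraries, in the same order of replicates.

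**Figure D2:**
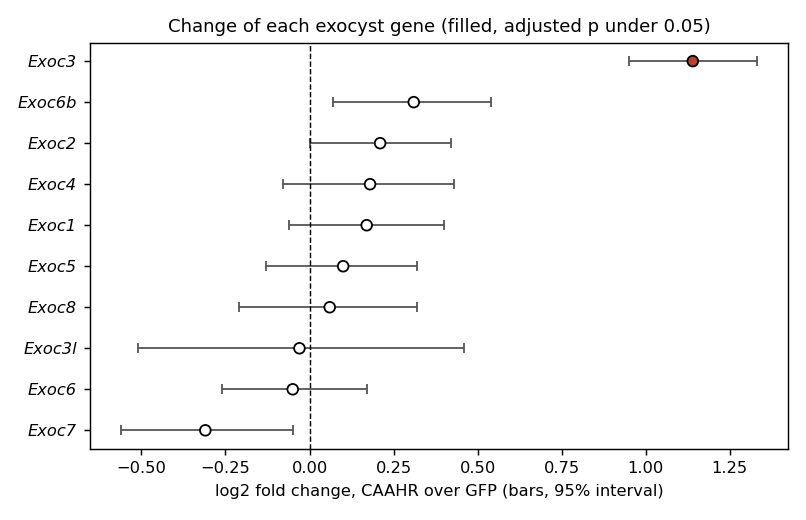
Log2 fold change of each exocyst gene, AAV9-HSA-CAAHR over AAV9-HSA-GFP (horizontal axis), with its 95% interval from the edgeR fit; filled, adjusted p under 0.05. Exoc3 stands at 1.14, and the other 9 genes lie between -0.31 and 0.31.

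The subunits that are thought to form a subcomplex with Exoc3 are Exoc1, Exoc2 and Exoc4. Exoc1, which binds membrane phosphoinositides, was at 14.6, 15.2 and 13.9 CPM in CAAHR replicates 31, 34 and 36 and at 13.8, 13.1 and 11.9 CPM in GFP replicates 42, 43 and 46. The groups did not overlap, but the lowest CAAHR library exceeded the highest GFP library by very little, and the log2 fold change of 0.17 ± 0.10 did not pass (edgeR adjusted p 0.346). Exoc2, an effector of active Ral GTPases, was at 24.8, 24.9 and 23.2 CPM in the CAAHR libraries and 21.8, 21.7 and 19.4 CPM in the GFP libraries. Again the groups did not overlap. The log2 fold change was 0.21 ± 0.09, with a 95% interval from 0.00 to 0.42 and an edgeR adjusted p of 0.202. Exoc4 was at 75.9, 89.3 and 78.7 CPM against 78.6, 74.3 and 63.0 CPM. Here GFP replicate 42 was within the CAAHR range, and the log2 fold change of 0.18 ± 0.11 had an edgeR adjusted p of 0.383.

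The other subcomplex is formed by Exoc5, Exoc6 or Exoc6b, Exoc7 and Exoc8. Exoc5, which links the complex to the GTPase Arf6, had 1818, 1977 and 1779 counts in CAAHR replicates 31, 34 and 36 and 1535, 1272 and 1628 counts in GFP replicates 42, 43 and 46, before scaling to library size. As CPM all GFP values lay within the CAAHR range, with a log2 fold change of 0.10 ± 0.10 (95% interval -0.13 to 0.32). Exoc8, the second Ral effector of the complex, was at 6.43, 6.72 and 6.51 CPM against 6.57, 5.96 and 6.38 CPM, with a log2 fold change of 0.06 ± 0.12 (95% interval -0.21 to 0.32).

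Exoc7 guides the complex to phosphoinositides of the plasma membrane, and it was the member with the lowest log2 fold change. It was at 67.2, 81.6 and 65.4 CPM in CAAHR replicates 31, 34 and 36 and at 82.5, 95.3 and 86.9 CPM in GFP replicates 42, 43 and 46. Every CAAHR library was below every GFP library, though CAAHR replicate 34 came close to GFP replicate 42. The mean was 71.4 ± 8.86 against 88.2 ± 6.51 CPM (SD, n = 3), and the log2 fold change of -0.31 ± 0.11 (95% interval -0.56 to -0.05) did not pass over all genes (edgeR adjusted p 0.131). Exoc7 was called in 1 of the 14 alternative fits, that without CAAHR replicate 34, where the log2 fold change was -0.42 and the edgeR adjusted p was 0.0311. Within libraries there were 0.886, 0.914 and 0.831 Exoc7 counts per Exoc4 count in CAAHR and 1.05, 1.28 and 1.38 in GFP muscles.

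Exoc6 and Exoc6b are paralogs that bind Rab11 on recycling vesicles, and one or the other takes the same place in the complex. Exoc6 was at 68.0, 66.9 and 57.8 CPM in CAAHR replicates 31, 34 and 36 and 66.4, 69.2 and 63.9 CPM in GFP replicates 42, 43 and 46, and these ranges overlapped. Its log2 fold change was -0.05 ± 0.10 (95% interval -0.26 to 0.17), and it was 0.03 with library size as the only scaling. Exoc6b was at 19.1, 16.2 and 17.9 CPM in the CAAHR libraries and 15.3, 14.2 and 13.5 CPM in the GFP libraries. Its groups did not overlap, and it had the highest log2 fold change among the 9 other members, 0.31 ± 0.10 (95% interval 0.07 to 0.54), which did not pass over all genes (edgeR adjusted p 0.108). There were 0.281, 0.242 and 0.310 Exoc6b counts per Exoc6 count in CAAHR and 0.231, 0.205 and 0.211 in GFP muscles, so the 2 sets of ratios did not overlap.

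Exoc3l, which shares ancestry with Exoc3, was the least abundant member. It had 76, 117 and 122 counts in CAAHR replicates 31, 34 and 36 and 91, 67 and 114 counts in GFP replicates 42, 43 and 46. At this depth its log2 fold change of -0.03 ± 0.22 had a wide 95% interval, from -0.51 to 0.46, and the sign changed with library size only (0.05). Of the other Exoc3-like genes, Exoc3l2, Exoc3l4 and Tnfaip2, 0 of 3 passed by edgeR, DESeq2 or limma-voom, with 1 at an unadjusted p under 0.05 by edgeR, beside 23.9% of all genes. That gene, named after its value was seen, was Exoc3l2, at 1.57 CPM on average in CAAHR and 2.62 CPM in GFP muscles (log2 fold change -0.74 ± 0.24, edgeR adjusted p 0.0939).

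Leaving out Exoc3, whose difference chose the set, the groups did not overlap for 4 of the other 9 members. Exoc1, Exoc2 and Exoc6b were higher in CAAHR muscles and Exoc7 was lower. Over all tested genes the groups did not overlap for 29.9%, with 15.0% higher and 14.9% lower.

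Levels were compared between members as CPM per kilobase (kb) of annotated exon. In GFP muscles the order began with Exoc7 (20.2 ± 1.49, SD, n = 3), Exoc6 (18.8 ± 0.748), Exoc3 (7.55 ± 0.321) and Exoc4 (5.69 ± 0.640), and it ended with Exoc6b (0.947 ± 0.0607) and Exoc3l (0.510 ± 0.0734). Exoc7 was at 18.9, 21.8 and 19.9 and Exoc6 at 18.7, 19.5 and 18.0 in GFP replicates 42, 43 and 46. Exoc7 was thus the higher in each library, though the ranges overlapped, and Exoc3 lay well below both. In CAAHR muscles Exoc6 (18.1 ± 1.58), Exoc3 (16.6 ± 0.410) and Exoc7 (16.3 ± 2.03) had ranges that overlapped, and Exoc4 followed at 6.43 ± 0.559. Exoc6 was above Exoc7 in each CAAHR library. Exoc2, Exoc5, Exoc8, Exoc1 and Exoc6b kept the ranks 5 to 9 in both groups. The order depends on which length is used. With the length of the principal transcript, an alternative chosen after seeing the data, Exoc3 was at 9.21 ± 0.391 CPM per kb and at rank 4 in GFP, below Exoc4 at 14.9 ± 1.68, and it was at 20.3 ± 0.500 CPM per kb and at rank 2 in CAAHR muscles, next to Exoc7 at 21.4 ± 2.66. By the principal transcript Exoc7 was at 26.4 ± 1.95 and Exoc6 at 18.8 ± 0.748 CPM per kb in GFP muscles. In both measures Exoc3 thus stood closer to the most abundant subunits in CAAHR than in GFP muscles.

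Exoc3 (ENSMUSG00000034152) lies at chr13:74169488-74208732 on the minus strand in GRCm38. Ahrr lies at chr13:74211118-74292331 on the same strand. Ahrr ends 2385 bases before Exoc3 begins, so that Exoc3 is the next gene downstream of Ahrr in the direction of transcription. On the other side, Slc9a3, a sodium-proton exchanger gene on the plus strand, ends 45 bases from the 3′ end of Exoc3. The 250 bases before the transcription start of each gene are shown because they allow the 2 neighbouring promoters to be compared, with each GCGTG or its reverse complement CACGC in capitals. The sequences are from RefSeq (GRCm38.p6, minus strand, 5′ to 3′), and the windows are chr13:74292332-74292581 for Ahrr and chr13:74208701-74208950 for Exoc3.
Ahrr: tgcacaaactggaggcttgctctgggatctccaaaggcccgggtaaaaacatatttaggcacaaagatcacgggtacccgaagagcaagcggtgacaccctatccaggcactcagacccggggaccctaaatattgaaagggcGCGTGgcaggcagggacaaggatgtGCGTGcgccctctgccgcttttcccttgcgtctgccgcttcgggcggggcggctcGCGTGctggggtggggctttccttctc
Exoc3: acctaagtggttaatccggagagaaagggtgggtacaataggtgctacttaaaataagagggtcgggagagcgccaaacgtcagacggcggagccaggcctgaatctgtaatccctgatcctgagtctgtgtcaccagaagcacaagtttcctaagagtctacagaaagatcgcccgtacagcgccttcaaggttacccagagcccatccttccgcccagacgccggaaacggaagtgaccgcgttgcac

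The Ahrr window held 3 matches and the Exoc3 window 0. Over windows of 300 bases (250 before and 50 after the start), 32.4% of 32851 windows held at least 1 match on either strand and 3.91% held 3 or more. A window was found for 9 of the 10 members, all but Exoc3l, and 5 of these 9 had a match in at least 1 window: Exoc1, Exoc2, Exoc6b, Exoc7 and Exoc8. A match is a sequence description and not a measured binding site, and the absence of the letters from the Exoc3 window says nothing of AHR binding elsewhere.

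Ahrr was at 24.0, 26.3 and 29.2 CPM in CAAHR replicates 31, 34 and 36 and at 0.187, 0.120 and 0.0755 CPM in GFP replicates 42, 43 and 46, the latter from 9, 5 and 4 counts. Exoc3 and Ahrr were both higher in all CAAHR libraries, but from very different levels in GFP muscles. In CPM, Exoc3 exceeded its GFP mean by 53.4, 52.9 and 57.4 in CAAHR replicates 31, 34 and 36. The difference between group means was 54.6 CPM for Exoc3 and 26.4 CPM for Ahrr, and per kb of exon it was 9.09 CPM for Exoc3 and 2.80 CPM for Ahrr. The gain in Exoc3 was thus 2.07 times that in Ahrr by counts and 3.25 times by counts per exon length. Gene totals do not show where along the gene reads began, so transcripts that start at Exoc3 and transcripts that run on from Ahrr were not told apart. Slc9a3 had 0 to 6 counts in any library, against at least 1870 for Exoc3.

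Other genes of the region gave a background for Exoc3. Within 500 kb on either side, 27 further genes of the table were annotated and 16 were tested. Ahrr was called, and of the other 15 none was called by edgeR, DESeq2 or limma-voom, with 2 at an unadjusted p under 0.05 by edgeR, beside 23.9% of all genes. The 2 were Ccdc127 (log2 fold change 0.28 ± 0.10) and the non-coding Gm15912 (-0.68 ± 0.24), the latter named after its value was seen. The groups did not overlap for 5 of the 15, beside 29.9% of all tested genes. The median of the 15 was 0.10 and 9 were above 0, where 51.2% of all tested genes were. Next to Ahrr on its far side, Pdcd6, a calcium-binding protein gene, was at 13.4 ± 2.18 CPM in CAAHR and 11.2 ± 0.746 CPM in GFP muscles (SD, n = 3), with a log2 fold change of 0.25 ± 0.13. Sdha, which encodes the flavoprotein subunit of succinate dehydrogenase, followed at 821 ± 56.2 against 709.9 ± 21.0 CPM and 0.21 ± 0.11. Downstream of Exoc3, the log2 fold changes were 0.10 ± 0.36 for Cep72, 0.22 ± 0.15 for Tppp and 0.25 ± 0.12 for Brd9. The remaining coding genes tested were Slc12a7, Nkd2, Slc6a18, Ftl1-ps1, Zfp72, Zfp825, Erap1 and Cast, and their log2 fold changes ran from -0.20 (Nkd2) to 0.17 (Slc6a18).

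**Figure D3:**
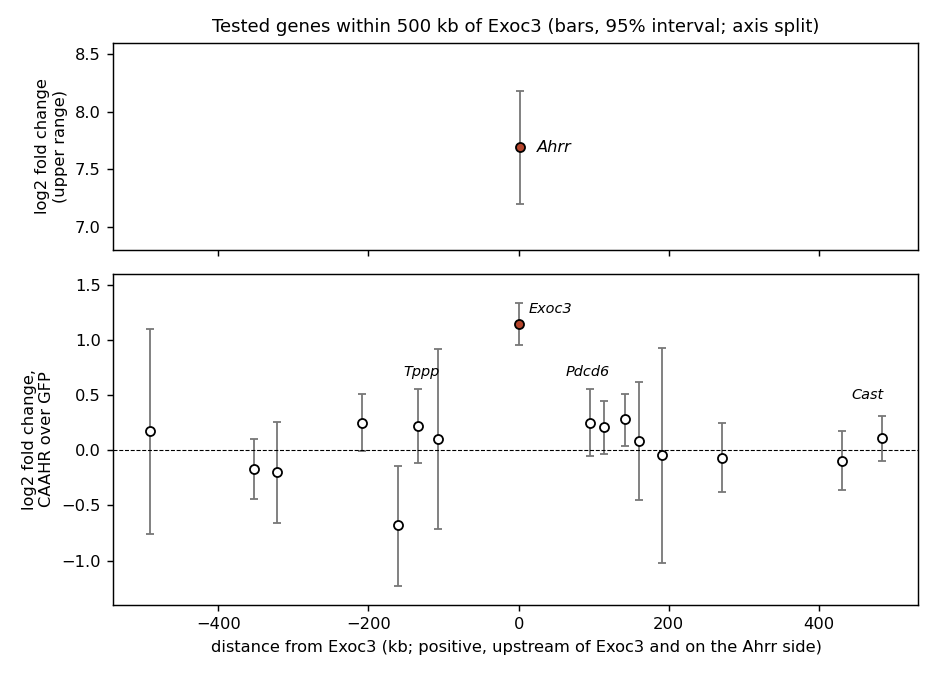
Log2 fold change, AAV9-HSA-CAAHR over AAV9-HSA-GFP (vertical axes, split between the panels), of the tested genes within 500 kb of Exoc3 against the gap to Exoc3 in kb (positive, upstream); error bars are 95% intervals and filled points had an adjusted p under 0.05. Ahrr at 7.69 and Exoc3 at 1.14 are filled, and the other 15 genes lie between -0.68 and 0.28.

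Partners of the exocyst were read from lists by function. Of 21 genes for the GTPases that bind the complex and their regulators (Rala, Ralb, Rab11a, Arf6 and others), 0 passed by edgeR or DESeq2 and 1 by limma-voom (Ralgds), with 4 at an unadjusted p under 0.05 by edgeR. Over all tested genes 23.9% had such a p. The median log2 fold change of the 21 was -0.04. Those 4, named after their values were seen, were Ralgapa1 (0.32 ± 0.11), a subunit of the GTPase-activating complex for Ral, Ralgds (-0.39 ± 0.12), an exchange factor for Ral, Rab11b (0.26 ± 0.09) and Rab3ip (0.28 ± 0.10), an exchange factor for Rab8. Of 15 membrane fusion genes (Stx4a, Snap23, Vamp2 and others), 0 passed by edgeR, DESeq2 or limma-voom and 0 had an unadjusted p under 0.05 by edgeR, with a median of -0.04 and a range from -0.33 to 0.17.

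Of 9 listed genes for GLUT4 vesicles, 8 were in the table by symbol, all were tested, and 2 rose, where 3.04% of all tested genes did. At an unadjusted p under 0.05 there were 4 of the 8, beside 23.9% of all genes. Tbc1d1, a Rab GTPase-activating protein that restrains GLUT4 vesicles, was at 124 CPM on average in CAAHR and 83.0 CPM in GFP muscles, a log2 fold change of 0.58 ± 0.11 (edgeR adjusted p 0.0134). Lnpep, an aminopeptidase carried by the same vesicles, was at 4.41 against 2.76 CPM, a log2 fold change of 0.67 ± 0.17 (edgeR adjusted p 0.0442). The other 2 with such a p, named after their values were seen, did not pass over all genes: Myo1c, a motor protein of GLUT4 vesicles, had a log2 fold change of 0.28 ± 0.10 and Sort1, a sorting receptor, one of -0.41 ± 0.16. The median of the 8 was 0.12, and 4 of the 8 were called without CAAHR replicate 34. Lnpep lost its call in 5 of the 6 fits that left out a library, keeping it without CAAHR replicate 34, and also lost it with upper quartile scaling. Tbc1d1 lost its call without CAAHR replicate 36, without GFP replicate 42 and without GFP replicate 46.

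Related tethers, which catch vesicles at the Golgi, endosomes and endoplasmic reticulum by subunits of similar fold, were listed as a comparison (COG, GARP and EARP, and the Dsl1-type complex). Of 16 tested, 2 rose by edgeR: Cog7, at 24.7 CPM on average in CAAHR and 17.2 CPM in GFP muscles (log2 fold change 0.52 ± 0.09, edgeR adjusted p 0.0105), and Cog2, at 19.2 against 13.8 CPM (0.47 ± 0.09, edgeR adjusted p 0.0157). Cog2 lost its call without CAAHR replicate 36, without GFP replicate 42 and without GFP replicate 43. Over all tested genes 3.04% were called higher. At an unadjusted p under 0.05 there were 7 of the 16, beside 23.9% of all genes. The median of the 16 was 0.22, with 14 above 0. The 9 exocyst genes other than Exoc3 had a median of 0.10, and it was 0.14 with Exoc3, whose difference chose the set.

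**Figure D4:**
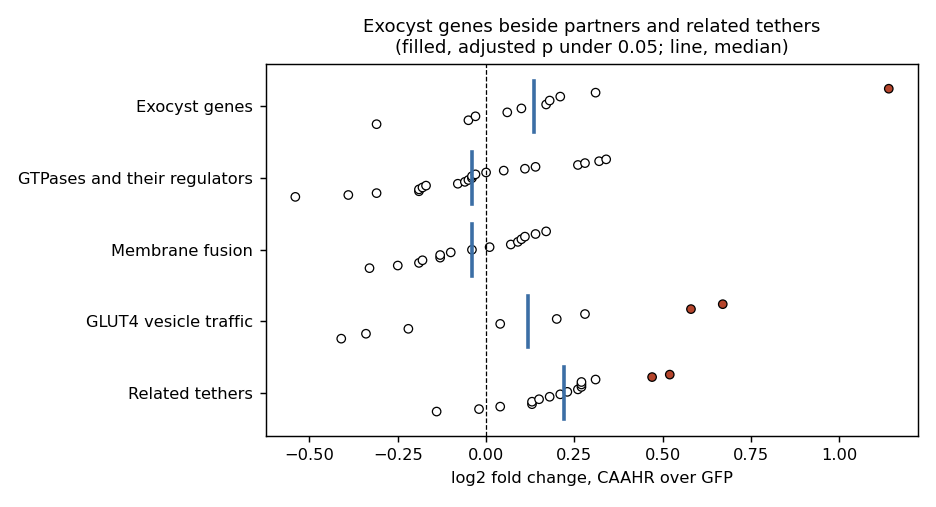
Log2 fold change, AAV9-HSA-CAAHR over AAV9-HSA-GFP (horizontal axis), of the exocyst genes, their partners and related tethers (1 point per tested gene, spread vertically by rank); lines are medians and filled points had an adjusted p under 0.05. Exoc3 at 1.14 is the rightmost point, and Lnpep at 0.67 and Tbc1d1 at 0.58 follow.

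The genes whose profile over the 6 libraries was most like that of Exoc3 are given as a description. The profile of Exoc3 is almost wholly its difference between the groups, the value that chose the set, so the distances restate that difference. Likeness was the root mean square distance between log2 CPM profiles, each centred on its own mean, over 11848 other genes with a mean of at least 1 CPM in each group. The nearest were Arl6ip5 (distance 0.0919), Pex11a (0.112), Rai14 (0.112), Cth (0.123) and Gm10435 (0.129), annotated as antisense, whose reads cannot be told from those of the opposite strand unless the counting used strand, which the sources do not state. Pex11a encodes a peroxisomal membrane protein and Cth the enzyme that makes cysteine from cystathionine. Arl6ip5 was at 184, 177 and 196 CPM in CAAHR replicates 31, 34 and 36 and 92.0, 94.8 and 93.9 CPM in GFP replicates 42, 43 and 46, close to the ratio seen for Exoc3. The nearest exocyst gene was Exoc6b at rank 1010 (0.423), and the farthest was Exoc7 at rank 9975 (0.739).

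Markers of other cell types and of slow fibres were also compared between the groups. Over all tested genes edgeR called 3.04% higher and 4.57% lower, and 23.9% had an unadjusted p under 0.05. In either direction limma-voom called 9.22% of 15847 genes and edgeR without CAAHR replicate 34 called 10.7% of 16180. DESeq2 called 6.71% of 28642 genes, a share over more genes because the filter on low counts was not applied first. The DESeq2 share is therefore not on the same footing as the others. Of 10 immune cell markers 10 had a log2 fold change below 0 and 5 were called lower by edgeR (9 by DESeq2, 4 by limma-voom, and 1 by edgeR without CAAHR replicate 34), with a summed level of 33.1 to 41.4 CPM in CAAHR and 183 to 567 CPM in GFP muscles. The paper reports by quantitative PCR that selected immune genes were not lower in CAAHR mice than in mice without virus. It reads this as a local immune response to AAV-GFP. Muscle without virus was not among the libraries here. Of 8 slow fibre markers 8 were above 0 and 0 were called by edgeR, with 7 at an unadjusted p under 0.05 and 7 called by DESeq2, 8 by limma-voom and 6 by edgeR without CAAHR replicate 34, and their sum was 2772, 646 and 2507 CPM in CAAHR replicates 31, 34 and 36 against 227 to 459.7 CPM in GFP muscles. Of 6 adipocyte markers 2 were called lower (86.3 to 139 against 108 to 229 CPM), and of 5 Schwann cell markers 0 were called by edgeR, 2 by DESeq2, 1 by limma-voom and 1 by edgeR without CAAHR replicate 34, with 2 at an unadjusted p under 0.05 (45.0 to 73.2 against 73.2 to 122 CPM). By all 3 tools 0 endothelial and 0 fibroblast markers were called, with 0 at an unadjusted p under 0.05 by edgeR. Endothelial (172 to 248 against 174 to 218 CPM) and fibroblast sums (285 to 635 against 474 to 575 CPM) overlapped between groups, and no marker in any list was at 0 in any library. In whole muscle, fewer cells of a type and less RNA per cell cannot be told apart. The part of these shifts in the exocyst values was not tested. CAAHR replicate 34 had the lowest slow fibre sum of its group, still above every GFP library. Without that replicate the log2 fold change of Exoc3, whose difference chose the set, was 1.14. In the same fit Exoc7 was called, with a log2 fold change of -0.42 (edgeR adjusted p 0.0311). Exoc6b had a log2 fold change of 0.36 and Exoc2 one of 0.19 in that fit, and neither was called.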

How the data were processed

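Gastrocnemius RNA of 3 CAAHR and 3 GFP muscles was sequenced after poly(A) selection. The deposited values are raw counts per gene, for which the authors trimmed paired reads with Trimmomatic 0.36, aligned them to GRCm38 with STAR 2.5.2b and counted uniquely mapped exon reads with featureCounts. Whether the libraries were stranded, and the annotation release, were not given in the sources used here. The study tested with DESeq2. Here genes passed filterByExpr (minimum count 10), were scaled by TMM and tested by edgeR's robust quasi-likelihood test (edgeR 4.0.16, R 4.3.3), with Benjamini-Hochberg adjustment over all tested genes and a threshold of 0.05. SE and 95% intervals came from the same fit. DESeq2 1.42.0, limma-voom with sample weights (limma 3.58.1), other scalings and filters, and fits leaving out each library were alternatives. The scripts were tested on simulated data. Positions and exon lengths came from GENCODE for GRCm38, and promoters from RefSeq. The paper gives n = 3 per group, from male mice, for this sequencing. The labels themselves do not tell whether every library was 1 animal, and if not, p-values measure technical spread. Replicates of a group differed beyond counting noise.

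The members and lists were chosen with earlier results of these data known. Named genes were the members, Ahr, Ahrr, tested protein-coding genes within 500 kb of Exoc3, called genes of each list (at most 6 by smallest p), and the 5 genes with a profile nearest to that of Exoc3; others are marked as named after their values were seen. The lists were GTPases and their regulators, membrane fusion, GLUT4 vesicles, related tethers, Exoc3-like genes and AHR targets, with markers of skeletal and slow fibres, immune cells, adipocytes, endothelium, fibroblasts and Schwann cells.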

Additional observations from a re-analysis of the deposited data

How the results depend on the processing

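Exoc3 kept its direction and call under 14 of 14 alternatives, with a log2 fold change of 1.07 to 1.22, and its share of exocyst counts differed between groups by 10.6 to 12.3 percentage points when each library was left out. Exoc3 was chosen for its difference in these same libraries, so these values describe the fits and are no support for that difference. The other 9 members had 0 to 1 calls when each library was left out, and the 10 members 1 to 2, the added call being Exoc7 without CAAHR replicate 34. Over all genes 1923 were called by DESeq2 (1199 shared with the 1205 of edgeR) and 2470 with no low-count filter (1181 shared), and 530 (without CAAHR replicate 36) to 1727 (without CAAHR replicate 34) with a library left out. With at least 10 counts in every library 0 neighbours were called, since Ahrr was no longer tested. GTPase genes had 1 call by limma-voom, with no low-count filter and with upper quartile scaling (0 to 1 with a library left out), membrane fusion genes 0 to 1 with a library left out, GLUT4 genes 4 with no filter and 1 with upper quartile scaling (0 to 4), related tethers 5 with library size only (1 to 2), and Exoc3-like genes 1 with no filter. The cause was not tested. Library size only moved the median of all genes to 0.09 and upper quartile scaling to -0.06, beside 0.01.

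Signs turned only for values near 0 that passed in no fit: with library size only Exoc6 (0.03), Exoc3l (0.05), Ftl1-ps1 (0.04) and Zfp825 (0.02), with limma-voom Exoc3l (0.02) and Ftl1-ps1 (0.04), and with upper quartile scaling Exoc8 (-0.02). With a library left out the ranges that crossed 0 were those of Exoc6 (-0.10 to 0.01), Exoc3l (-0.12 to 0.10), Cep72 (-0.05 to 0.32), Ftl1-ps1 (-0.51 to 0.22), Zfp72 (-0.05 to 0.25) and Zfp825 (-0.14 to 0.00). With 3 libraries a group, the intervals of the 9 other members allow differences of up to 0.56 on the log2 scale. No paired analysis was possible because CAAHR and GFP libraries carry different replicate numbers.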

Other observations

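Genes beside strongly raised ones were counted, leaving out Exoc3, whose value chose the set. Of 71 genes with an adjusted p under 0.05 and a log2 fold change above 2, the adjacent tested genes that were not themselves that high numbered 123. Of these 12 (9.76%) were called higher and 10 lower, where 3.04% of all tested genes were called higher and 4.57% lower. Adjacent meant the nearest tested gene on either side at any distance, with gaps of 0 to 2903537 bases. Of those called higher, Utp14b, Tbc1d16 and Pla2g7 had a gap of 0 and 5930412G12Rik lay 946208 bases away. Why more were called higher was not tested. The next gene downstream on the same strand was available in 27 cases, and 4 (14.8%) were called higher, beside the same 3.04%. Within 5 kb there were 4 such genes with Exoc3 included. Utp14b, which overlaps Acsl3, had a log2 fold change of 1.46 and Exoc3 one of 1.14, whereas Edc3, 4715 bases after Cyp1a1, had 0.07 (edgeR adjusted p 0.799) and Sergef, 4833 bases after Tph1, had -0.28 (edgeR adjusted p 0.513). Overlapping genes can share reads, and these genes were named after their values were seen. Cyp1a1, a classic AHR target, was at 1231, 1680.2 and 1517 CPM in CAAHR replicates 31, 34 and 36 and at 5.85 to 7.74 CPM in GFP muscles.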
